A study of Mus musculus with 30 samples.

Results

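The livers of 10 control mice were compared, 5 taken early and 5 taken late on a diet rich in fat, cholesterol and fructose (HFCFD), out of 30 livers sequenced. The members were chosen by their labels alone, as the Cre- mice of the 2 treatments that included tamoxifen. All 10 were *Cebpa* fl/fl mice without Cre, so the gene carried loxP sites and was left intact. The early group was labelled with 8 weeks of HFCFD and 10 days of tamoxifen (HFCFD8W+T10D). The late group had 12 weeks of HFCFD and then 10 weeks of HFCFD with tamoxifen (HFCFD12W+T10W), which makes 22 weeks on the diet. Tamoxifen came at the end of the feeding in both groups, and the labels do not say whether the 10 days of the early group were counted within the 8 weeks. Feeding time, length of tamoxifen treatment and cohort all differed between the groups and cannot be told apart, nor can any difference in age. Ages, the hour of tissue collection and the feeding state were not given in the sources used here.

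The study asked what loss of CEBPA, a transcription factor of mature hepatocytes, does to a liver with metabolic dysfunction-associated steatohepatitis. Its 20 other livers were 10 Cre+ mice of the same 2 treatments and 10 mice on 2 weeks of HFCFD. In the Cre+ mice a tamoxifen-inducible Cre under the albumin promoter removes *Cebpa* from hepatocytes. The 5 fl/fl mice on 2 weeks of diet (HFCFD2W) had no tamoxifen in their labels and came from the breeding of another, not inducible, Cre line, so their levels are given as values without a test. Only male mice were used.

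A diet rich in fat, cholesterol and fructose loads hepatocytes with lipid, and in time macrophages are recruited and stellate cells lay down collagen. Hepatocytes also carry a circadian clock. In it, CLOCK and BMAL1 (gene *Arntl*) switch on the *Per*, *Cry*, *Nr1d1*, *Dbp* and *Ciart* genes through E-boxes, and the products of several of these genes switch CLOCK and BMAL1 off again. Feeding, growth hormone and glucocorticoids reach many of the same metabolic genes.

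The libraries held 8572611 to 9956884 counts, with medians of 9158677 in the early and 8989054 in the late livers. The mean correlation of a library's log2 levels with its own group was 0.970 to 0.979, and with the other group 0.957 to 0.967. Levels are CPM, counts scaled to a fixed library total, after normalization for library composition. The hepatocyte markers *Alb*, *Ttr*, *Apoa1*, *Hnf4a* and *Serpina1c* summed to 99399 to 125521 CPM in the early and 84440 to 106382 CPM in the late livers, and none of the 5 passed the test. No count was found for the adipocyte markers *Adipoq*, *Plin1* and *Lep* or the acinar markers *Prss2*, *Cpa1* and *Pnlip*.

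Of 11710 genes tested, 553 were higher in the late livers (4.72%) and 448 were lower (3.83%) at an adjusted p under 0.05 in edgeR's quasi-likelihood test. A change over 2-fold was seen in 118 of the genes that rose (1.01%) and in 155 of those that fell (1.32%). In 555 genes every late liver was above every early one (4.74%), and in 425 genes every late liver was below (3.63%). In all, 2807 genes had an unadjusted p under 0.05. A gene is said to rise or fall only where it passed this test, and the direction is always late against early. Leaving out HFCFD8W+T10D mouse 1 or 3 or HFCFD12W+T10W mouse 3 lowered the count of risen genes to 362, 338 and 317. Without HFCFD8W+T10D mouse 1 or 3 or HFCFD12W+T10W mouse 2 or 3, the fallen genes numbered 269, 258, 277 and 232.

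Genes of the circadian clock changed in both directions. Of 26 clock and clock output genes, 25 were tested, and 12 rose and 6 fell, beside 4.72% risen and 3.83% fallen of all genes. Leaving out each mouse in turn gave 11 to 12 risen and 4 to 6 fallen genes. The groups did not overlap for 12 of the genes that rose and for 5 of those that fell, beside 4.74% and 3.63% of all genes. The 7 tested genes that did not pass, *Csnk1d*, *Bhlhe41*, *Rora* and *Cry2* among them, had log2 changes from -0.06 (*Tspan4*) to 0.38 (*Bhlhe40*).

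Promoter stretches are shown for 7 clock genes that passed the test and whose windows held a motif read by clock factors. The windows ran from 250 bases before to 50 bases after the start in RefSeq (GRCm38.p6), and 20 of the 26 clock genes matched an entry. Capitals mark the motif on either strand: the E-box CACGTG in *Ciart* (chr3:95882263-95882352, minus strand), *Tef* (chr15:81802518-81802572, plus), *Per1* (chr11:69098759-69098813, plus) and *Cry1* (chr10:85185085-85185139, minus), the D-box TTANGTAA in *Per3* (chr4:151044811-151044875, minus), and the ROR element TAGGTCA in *Nfil3* (chr13:52981040-52981074, minus) and *Arntl* (chr7:113207531-113207557, plus).
Ciart: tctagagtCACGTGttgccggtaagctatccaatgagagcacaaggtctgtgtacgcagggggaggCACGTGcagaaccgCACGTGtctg
Tef: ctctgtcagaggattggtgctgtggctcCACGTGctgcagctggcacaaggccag
Per1: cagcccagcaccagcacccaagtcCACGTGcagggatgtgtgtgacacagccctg
Cry1: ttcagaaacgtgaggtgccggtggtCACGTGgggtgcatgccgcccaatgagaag
Per3: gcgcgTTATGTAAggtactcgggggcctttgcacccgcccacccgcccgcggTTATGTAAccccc
Nfil3: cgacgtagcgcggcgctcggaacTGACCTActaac
Arntl: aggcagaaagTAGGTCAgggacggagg

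The *Arntl* stretch lies after the RefSeq start used for its window, and the others lie before theirs. By the GENCODE gene coordinates, the *Per1* and *Tef* stretches and all but the edge of the *Nfil3* stretch also lie inside the gene. An E-box stood in 6 of the 20 clock windows and in 8.09% of the windows of all 27025 genes. It was present in 15.28% of windows of genes that rose and in 10.98% of those that fell, beside 11.96% of genes tested. ROR elements were found in 3 of 5 clock genes that fell (*Arntl*, *Nfil3* and *Leo1*), in none of 10 that rose, and in 2.97% of all genes. Over all genes that rose and all that fell the shares were 4.63% and 3.47%. A D-box was found in 1 clock gene, *Per3*, and in 2.72% of all genes. In all, 7 motifs were searched with the results known, and the 4 others were the cAMP response element TGACGTCA, in 1 clock gene (*Hlf*) and 2.03% of all genes, the glucocorticoid response element (an inverted repeat with a spacer of any 3 bases, 0.06% of all), the PPAR response element (a direct repeat with a spacer of any 1 base, 0.05%) and the sterol response element TCACNCCAC (1.44%), the last 3 in no clock gene. These are letter matches in short windows, given as a description and not tested.

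Among the clock genes the output genes *Ciart*, *Dbp* and *Noct* had the 3 largest rises. *Ciart*, which encodes a repressor of CLOCK and BMAL1 and carries the E-boxes shown above, stood at 0.683, 1.01, 0.679, 0.297 and 0.961 CPM in the 5 early livers. It stood at 9.8, 12.6, 10.4, 10.8 and 9.1 CPM in the late livers, 14.4-fold higher (log2 change 3.85 ± 0.23 SE, adjusted p = 2.11e-06). *Dbp* (chr7:45705088-45710203, plus strand, mm10), a PAR bZIP activator that is a classic output of the clock, was 2.73, 3.93, 4.76, 6.04 and 2.31 CPM early and 56.5, 56.4, 22.9, 45.3 and 24.1 CPM late. Neither gene had an early liver within the range of the late ones, and *Dbp* was 10.33-fold higher (log2 change 3.37 ± 0.33, adjusted p = 9.73e-05). *Noct*, an enzyme of the clock output known as nocturnin, rose, at 5.29 to 9.13 CPM early and 43.1 to 67.3 CPM late (7.13-fold, adjusted p = 2.11e-06). Of the 2 other PAR bZIP genes, *Tef* rose, at 73.4 to 102 CPM early and 144 to 173 CPM late and *Hlf* rose, at 42.6 to 50.8 CPM early and 56.6 to 69.3 CPM late. The deubiquitinase gene *Usp2* rose 2.36-fold (adjusted p = 2.48e-05).

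The negative arm split. *Per1*, *Per2* and *Per3* encode repressors that act with the cryptochromes, and all 3 rose. *Per3* was 3.98, 3.3, 5.32, 4.85 and 2.88 CPM in the early and 19.96, 16.2, 14.7, 10.31 and 12.96 CPM in the late livers, a 3.63-fold difference (adjusted p = 2.67e-04). *Per1* rose 2.4-fold (adjusted p = 0.00718) and *Per2* 1.71-fold (adjusted p = 0.0292), with no overlap for either. The call of *Per2* was lost without HFCFD8W+T10D mouse 2 or HFCFD12W+T10W mouse 2, 3 or 5 (adjusted p 0.0577 to 0.0734). *Cry1*, by contrast, fell, at 32.9, 28.3, 28.8, 39.4 and 36.04 CPM early and 11.7, 7.81, 18.5, 16.4 and 21.8 CPM late (2.17-fold lower, adjusted p = 0.00774). *Nr1d1* and *Nr1d2* encode the REV-ERB receptors, which repress *Arntl*. *Nr1d1* was 5.35, 5.7, 4.3, 6.94 and 7.5 CPM early and 24.3, 34.4, 18.8, 32.9 and 15.4 CPM late (4.19-fold higher, adjusted p = 2.90e-04), and *Nr1d2* rose 2.39-fold. *Wee1*, a cell cycle kinase under clock control, rose 1.68-fold.

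*Arntl* and *Clock* of the positive arm fell. *Arntl* (chr7:113207465-113314126, plus strand, mm10) stood at 14.7, 13.2, 12.9, 15.4 and 20.2 CPM in the early livers. In the late livers it stood at 0.807, 0.33, 2.58, 1.79 and 2.77 CPM, 9.07-fold lower (log2 change -3.18 ± 0.33, adjusted p = 1.98e-04). The lowest early value was several times the highest late one. *Clock* fell, at 41.8 to 67.6 CPM early and 19.6 to 29.6 CPM late (1.98-fold, adjusted p = 0.00216). *Nfil3*, the repressor that competes with DBP at D-boxes, fell 1.78-fold, a call that was lost without HFCFD8W+T10D mouse 1, 2, 3 or 5 or HFCFD12W+T10W mouse 1, 2 or 3 (adjusted p 0.0554 to 0.0944). *Leo1* fell 1.48-fold and lost its call without HFCFD8W+T10D mouse 1, 3 or 4 or HFCFD12W+T10W mouse 1, 2 or 3 (adjusted p 0.0544 to 0.0677).

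**Figure D1:**
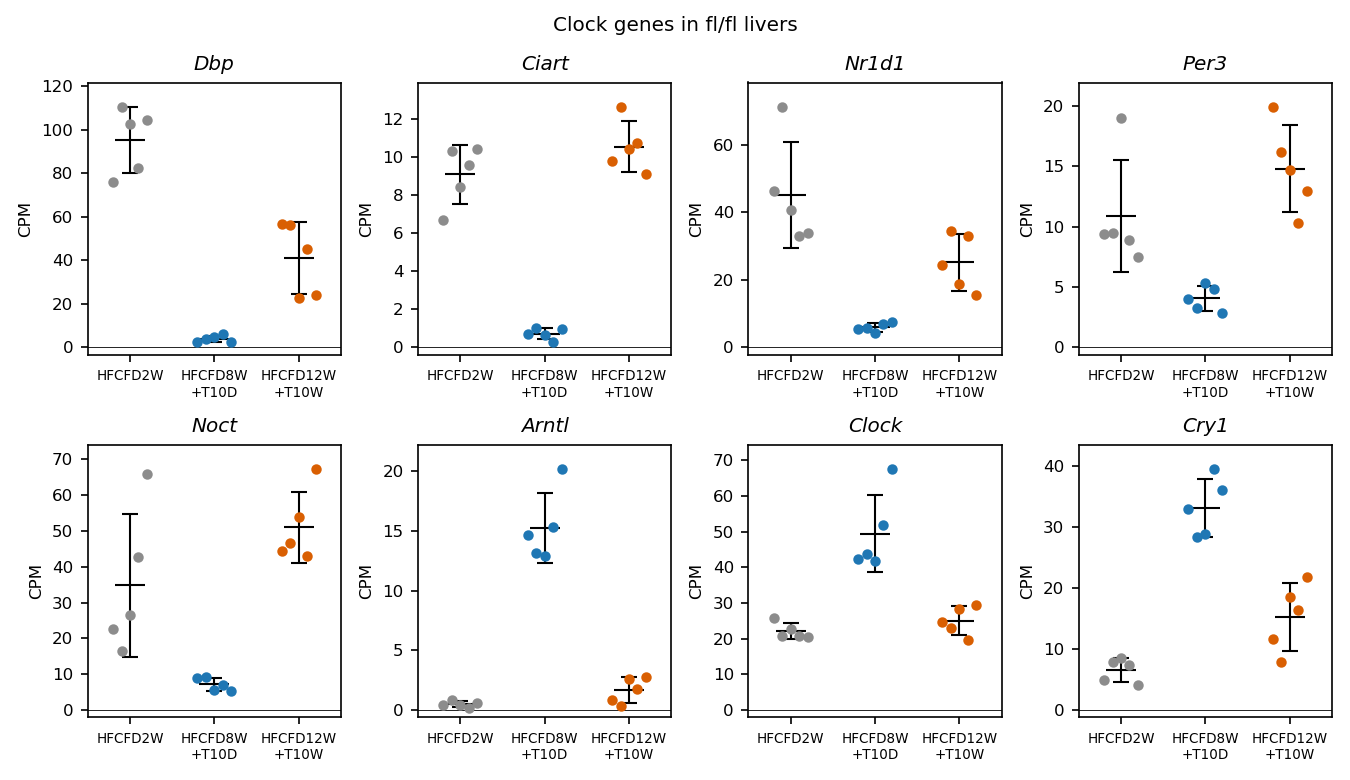
Level in CPM (vertical axis, linear, from 0) of 8 clock genes in each of 5 fl/fl mice after 2 weeks of HFCFD, HFCFD8W+T10D and HFCFD12W+T10W; points are mice, bars are the mean and 1 SD. The 5 early livers are low for *Dbp*, *Ciart*, *Nr1d1*, *Per3* and *Noct* and high for *Arntl*, *Clock* and *Cry1*.

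The HFCFD2W livers were not part of the test, and for most of the genes plotted their levels lay nearer the late than the early ones. *Dbp* was 75.7 to 111 CPM there, *Nr1d1* 33.01 to 71.3 CPM and *Ciart* 6.7 to 10.4 CPM. *Arntl* was 0.132 to 0.86 CPM and *Cry1* 4.1 to 8.44 CPM. Other clock genes did not share that placing. *Per1* was 12.7 to 27.1 CPM in HFCFD2W livers, overlapping the early range of 5.21 to 17.9 CPM and below the late range of 28.6 to 38.5 CPM. *Usp2* was 29.5 to 43.4 CPM there, between 20.5 to 27.5 CPM early and 54.8 to 67.8 CPM late, and *Per2*, at 16.8 to 26.3 CPM, overlapped both groups.

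The Cre+ livers of the same 2 treatments, other mice of the same cohorts, gave 11 risen and 7 fallen clock genes, beside 11.9% risen and 11.2% fallen of all genes there. *Dbp* changed by 2.83 log2, *Ciart* by 3.06 and *Arntl* by -3.06 (adjusted p = 2.15e-04, 2.68e-04 and 1.76e-04). The difference between the genotypes was called for 1 of 25 clock genes, beside 7.15% of all genes. It was *Nfil3*, which fell further in the Cre+ livers (-2.11 log2, difference 1.29, adjusted p = 0.0418).

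Immediate early genes, whose transcription follows hormonal and growth factor signals within minutes, showed 5 risen and 0 fallen genes of 23 tested, beside 4.72% risen and 3.83% fallen of all genes. The median log2 change was 0.55 over the list and -0.004 over all genes. *Gadd45g*, a stress-response gene, rose, at 2.5, 2.79, 5.21, 6.84 and 6.82 CPM early and 15.5, 13.3, 15.8, 8.96 and 32.9 CPM late (3.53-fold, adjusted p = 0.00837). *Zfp36*, which destabilizes cytokine mRNAs, rose 2.06-fold without overlap. The kinase gene *Sik1* rose 2.52-fold and the transcription factor gene *Maff* 2.85-fold. HFCFD2W levels of *Gadd45g* and *Maff* were 1.004 to 6.18 and 1.91 to 3.15 CPM, on the early side, and those of *Sik1* were 21.8 to 42.5 CPM.

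Some collagen and other matrix mRNAs fell. Of 41 fibrillar and basement membrane matrix genes tested, 9 fell and 0 rose, beside 3.83% fallen of all genes, and the list's median log2 change was -0.51. *Col1a1* (chr11:94936224-94953042, plus strand, mm10), the main fibrillar collagen of scars, stood at 47.8, 42.9, 16.1, 17.04 and 41.5 CPM in the early and 21.8, 14.5, 11.004, 5.49 and 14.8 CPM in the late livers. HFCFD8W+T10D mice 3 and 4 lay within the late range and the other 3 well above it, and the fall was 2.44-fold (log2 change -1.29 ± 0.36, adjusted p = 0.0459). That call was lost without HFCFD8W+T10D mouse 1, 2 or 5 or HFCFD12W+T10W mouse 2, 3, 4 or 5 (adjusted p 0.0641 to 0.109). *Col3a1* was 141, 123, 66.5, 58.6 and 136 CPM early and 52.1, 54.4, 38.7, 26.8 and 51.5 CPM late, 2.35-fold lower without overlap (adjusted p = 0.0132). *Sparc*, a collagen-binding protein, fell, at 128, 123, 82.9, 74.8 and 128 CPM early and 47.99, 57.95, 55.5, 43.8 and 68.6 CPM late (1.95-fold, adjusted p = 0.00452). In HFCFD2W livers *Col1a1* was 4.56 to 18.7, *Col3a1* 22.1 to 63.5 and *Sparc* 37.4 to 69.8 CPM, near the late ranges.

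*Col5a2*, *Postn*, *Mgp*, *Fbln1*, *Fbln5* and *Fbn1* made up the rest of the 9. *Postn*, a matricellular protein of activated stroma, fell 2.31-fold without overlap (adjusted p = 0.0123). *Fbln1* lost its call without HFCFD8W+T10D mouse 1, 3 or 5 or HFCFD12W+T10W mouse 1, 2 or 3 (adjusted p 0.0504 to 0.0703). The partner chain *Col1a2* did not pass (log2 change -0.98 ± 0.29, adjusted p = 0.0512). Among 19 tested enzymes and inhibitors that process matrix, *Loxl2* (crosslinking), *Serpinh1* (a collagen chaperone) and *P4ha2* (proline hydroxylation) fell 2.2-, 2.03- and 1.86-fold and none rose, beside 3.83% fallen of all genes. Without HFCFD8W+T10D mouse 4 that list held 5 fallen genes. *Tagln*, an actin-binding protein of contractile cells, fell 2.32-fold, with 9.33, 7.23, 8.27, 6.34 and 10.28 CPM early and 2.65, 4.29, 4.15, 1.9 and 4.75 CPM late. *Vim*, a filament of mesenchymal cells, fell 1.65-fold and lost its call without HFCFD8W+T10D mouse 1, 2, 3 or 5 or HFCFD12W+T10W mouse 1, 2, 3 or 4 (adjusted p 0.0589 to 0.0779).

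The size of the matrix result rested on single mice. The 9 fallen genes became 5 without HFCFD8W+T10D mouse 1 or 5 or HFCFD12W+T10W mouse 3, 6 without HFCFD8W+T10D mouse 2 or HFCFD12W+T10W mouse 2 or 4, and 18 without HFCFD8W+T10D mouse 4, while the list's median stayed between -0.64 and -0.41. DESeq2 gave 16 fallen genes and the joint fit of 30 libraries 14 of 45. The study followed a set of fibrosis and inflammation mRNAs. Of 12 such genes 8 were tested, and only *Col1a1* passed, as fallen, beside 3.83% fallen of all genes. Without HFCFD8W+T10D mouse 1, 2 or 5 or HFCFD12W+T10W mouse 2, 3, 4 or 5 the count was 0 of 8. It was 3 without HFCFD8W+T10D mouse 4, and 2 without HFCFD8W+T10D mouse 3 or HFCFD12W+T10W mouse 1. The others were *Acta2* (-0.84 log2), *Timp2* (-0.45), *Mmp2* (-0.38), *Il1b* (-0.33), *Tgfb1* (0.21), *Ccl2* (0.29) and *Col1a2*.

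The summed level of 5 stellate cell markers was 100 to 153 CPM in the early and 84.7 to 108 CPM in the late livers. Of these markers only *Col1a1* passed, and *Lrat*, *Reln* and *Des*, which mark stellate cells at rest or in general, changed by -0.02, -0.09 and 0.10 log2. *Pdgfrb* changed by -0.57 log2 and did not pass. Their part in the result was not tested. In whole liver, fewer cells of a type and less RNA per cell cannot be told apart.

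Markers of the mesothelium, the lining of the liver surface, varied with the matrix genes among the early livers. With those of the gallbladder, the 7 markers on the list summed to 24.01, 40.9, 16.3, 7.93 and 46.5 CPM in the early and 11.997, 13.5, 3.14, 15.8 and 12.96 CPM in the late livers. HFCFD8W+T10D mice 1, 2 and 5 were highest, the same mice in which *Col1a1* was high, and HFCFD8W+T10D mouse 4 lay within the late range. Among the late livers, HFCFD12W+T10W mouse 4 had the highest sum and the lowest *Col1a1* (5.49 CPM). The mesothelial markers *Msln*, *Upk3b*, *Upk1b* and *Gpm6a* were tested, with a median log2 change of -1.23. None of the 4 passed edgeR's test or DESeq2's, beside 3.83% fallen of all genes in edgeR. Of the 4, 3 had an unadjusted p under 0.05, beside 2807 of 11710 genes tested. Without HFCFD8W+T10D mouse 4, 3 passed as fallen, beside 443 of 11825 genes. *Msln*, mesothelin, was 7.74, 15.1, 5.1, 2.77 and 17.5 CPM early and 2.31, 4.07, 0.674, 4.26 and 4.25 CPM late (log2 change -1.62, adjusted p = 0.0644). Of the gallbladder markers, *Muc5b* and *Agr2* were at 0 in all 10 livers, and *Ctse* was at 0.254 to 0.961 CPM early and 0.55 to 1.5 CPM late. The part of the mesothelium in the matrix result was not tested.

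**Figure D2:**
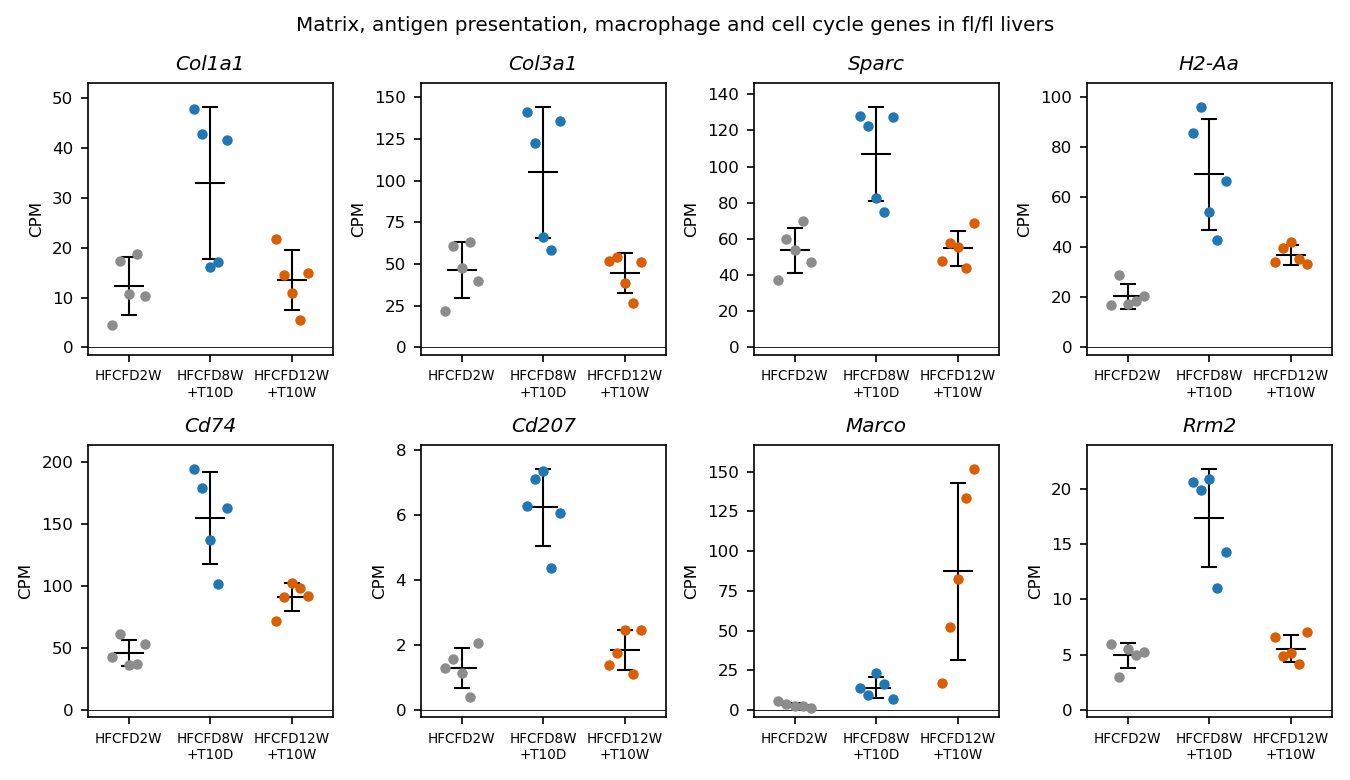
Level in CPM (linear axis) of 8 matrix, antigen presentation, macrophage and cell cycle genes in the 5 mice of each fl/fl group; points are mice, bars the mean and 1 SD. *Col1a1*, *Col3a1*, *Sparc* and *Rrm2* are highest in HFCFD8W+T10D livers, and *Marco* runs from 16.96 to 152 CPM in the late livers.

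In the Cre+ livers most matrix genes rose over the same interval. Of 45 tested there, 32 rose and 2 fell, beside 11.9% risen and 11.2% fallen of all genes in the Cre+ livers. Of the 45, 34 differed between genotypes, beside 7.15% of all genes, all with the fl/fl change below the Cre+ change. *Col1a1* changed by -1.29 log2 in the fl/fl and by 0.92 in the Cre+ livers (difference -2.20, adjusted p = 0.00919). For *Col3a1* the difference was -2.19 (adjusted p = 0.00225) and for *Loxl2* it was -1.98 (adjusted p = 0.00148). *Timp2* and *Mmp2*, which did not pass in the fl/fl livers, rose by 1.19 and 1.27 log2 in the Cre+ livers, and both differed between genotypes (adjusted p = 3.45e-04 and 0.0024). *P4ha2* fell in both genotypes, with log2 changes of -0.90 and -0.85.

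**Figure D3:**
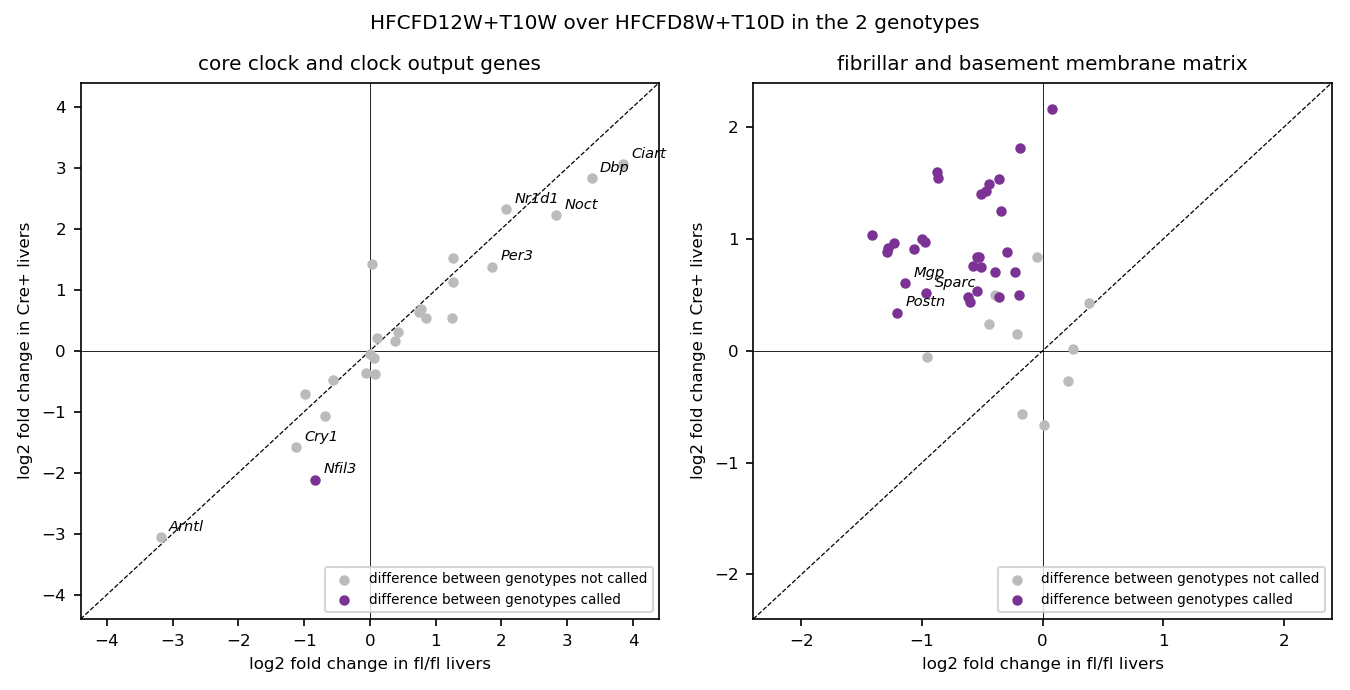
Log2 change from HFCFD8W+T10D to HFCFD12W+T10W in fl/fl livers (horizontal) against Cre+ livers (vertical) for each clock gene (left) and each matrix gene (right); the dashed line marks equal change, and purple points are genes whose change differed between genotypes at an adjusted p under 0.05. Clock genes lie along the line with 1 purple point, whereas the purple matrix genes all lie above the line and most have a negative fl/fl and a positive Cre+ change.

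Genes of MHC class II antigen presentation, which macrophages, dendritic cells and B cells use to show peptides to T cells, mostly fell. Of 16 listed, 9 were tested, and 7 fell and 0 rose, beside 3.83% fallen of all genes. The median log2 change was -0.76, and -0.79 to -0.29 in the other fits that kept every mouse. *H2-Aa* was 85.7, 96.1, 53.9, 42.9 and 66.5 CPM in the early and 33.9, 39.8, 41.996, 35.4 and 33.3 CPM in the late livers (1.87-fold lower, adjusted p = 0.0109). *Cd74*, the invariant chain, was 194, 179, 137, 101 and 163 CPM early and 71.98, 91.5, 102, 98.5 and 91.7 CPM late (1.7-fold lower, adjusted p = 0.0111). The late livers were tightly grouped for both genes, and the early ones were spread more widely. *Cd86*, a costimulatory ligand, fell 1.91-fold without overlap, and *H2-Ab1*, *H2-Eb1*, *H2-DMa* and *H2-DMb1* fell 1.75-, 1.68-, 1.94- and 1.53-fold. The value of *H2-DMb1* is uncertain, since its expected counts were not whole in 9 of 10 libraries, as happens where reads are split with a near copy. The count of 7 became 3 without HFCFD8W+T10D mouse 1 and 4 without mouse 2 of either group. Each of *H2-Ab1*, *H2-Eb1*, *H2-DMa* and *H2-DMb1* lost its call without at least 1 mouse (adjusted p up to 0.0562, 0.0581, 0.0568 and 0.0824). B and plasma cell markers, another source of these mRNAs, summed to 6.44 to 43.3 CPM early and 5.17 to 21.5 CPM late, with neither of the 2 tested (*Jchain* and *Igkc*) called. Their part in the result was not tested. The list's difference between genotypes was called for 4 of 14 genes, beside 7.15% of all genes (*H2-Aa*, *Cd74*, *H2-Ab1* and *H2-Eb1*), all lower in the fl/fl change.

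Resident Kupffer cell genes, those of the macrophages that line the sinusoids, gave 6 fallen and 1 risen of 24 tested, beside 4.72% risen and 3.83% fallen of all genes (median log2 change -0.65 over the list). *Cd207*, a lectin, stood at 6.26, 7.1, 7.36, 4.36 and 6.05 CPM early and 1.38, 1.76, 2.47, 1.12 and 2.47 CPM late, 3.34-fold lower without overlap (adjusted p = 0.0011). *Clec4f*, the lectin that defines mouse Kupffer cells, was 217, 187, 276, 195 and 171 CPM early and 63.9, 122, 110.0, 158 and 146 CPM late (1.74-fold lower, adjusted p = 0.0334). Its call was lost without HFCFD8W+T10D mouse 1 or 3 or HFCFD12W+T10W mouse 2 or 3 (adjusted p 0.0674 to 0.0847). In HFCFD2W livers *Clec4f* was 46.4 to 64.5 CPM and *Cd207* 0.395 to 2.05 CPM. *Adgre1*, which encodes F4/80, fell 1.9-fold and lost its call without HFCFD8W+T10D mouse 1, 2 or 3 or HFCFD12W+T10W mouse 2 or 3 (adjusted p 0.0792 to 0.0974). *Vsig4*, a complement receptor, fell 1.72-fold and lost its call without HFCFD8W+T10D mouse 1, 2, 3 or 4 or HFCFD12W+T10W mouse 1, 2 or 3 (adjusted p 0.0538 to 0.1). The 6 fallen genes became 1 without HFCFD8W+T10D mouse 1 or 3 or HFCFD12W+T10W mouse 3, 2 without HFCFD12W+T10W mouse 2, 3 without HFCFD8W+T10D mouse 2 and 4 without HFCFD12W+T10W mouse 1. They numbered 10 in DESeq2, 12 in the joint fit of 30 libraries and 3 with limma on the authors' values.

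*Marco*, a scavenger receptor, was the Kupffer list member that rose, and 1 of 24 is near the share of all genes. It was 14.1, 9.63, 23.4, 16.3 and 6.82 CPM in the early livers and 16.96, 52.01, 82.6, 133 and 152 CPM in the late ones (6.21-fold, adjusted p = 0.0068). HFCFD12W+T10W mouse 1 lay within the early range, and the other 4 were above it. In the Cre+ livers *Marco* changed by -1.91 log2, a difference between genotypes of 4.54 (adjusted p = 0.00428). The 4 Kupffer markers *Clec4f*, *Vsig4*, *Timd4* and *Cd5l* summed to 391 to 787 CPM early and 168 to 489 CPM late. Of them *Clec4f* and *Vsig4* fell, and *Timd4* and *Cd5l* changed by -0.08 and -0.54 log2. Their part in the MHC class II and macrophage results was not tested.

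Lipid-associated macrophage genes, which mark macrophages that have taken up lipid, gave 3 fallen (*Trem2*, *Ctss* and *Cd300lb*) and 0 risen of 29 tested, beside 4.72% risen and 3.83% fallen of all genes. *Trem2*, a lipid receptor, was low throughout, at 1.14 to 2.83 CPM early and 0.448 to 1.09 CPM late, and lost its call without HFCFD8W+T10D mouse 3 or 5 or HFCFD12W+T10W mouse 1 or 2 (adjusted p 0.0508 to 0.067). *Ctss*, a lysosomal protease, fell 1.79-fold and lost its call without HFCFD8W+T10D mouse 3 or HFCFD12W+T10W mouse 3 (adjusted p 0.0531 to 0.0553). *Cd300lb* lost its call without HFCFD8W+T10D mouse 1 or 3 or HFCFD12W+T10W mouse 3 (adjusted p 0.0502 to 0.0627). The list held 0 called genes without HFCFD8W+T10D mouse 3, 1 without HFCFD12W+T10W mouse 3 and 5 without HFCFD8W+T10D mouse 4. Of 17 chemokines and cytokines tested, 2 rose and 2 fell, beside 4.72% risen and 3.83% fallen of all genes, with a median log2 change of 0.08. *Ccl24* and *Cxcl9* fell 2.84- and 1.63-fold, and *Il18* rose 1.63-fold. *Cxcl9* lost its call in the joint fits of 30 and of 20 libraries (adjusted p = 0.0687 and 0.0821). *Cxcl13*, a B cell attractant, was 1.82, 2.79, 3.51, 1.88 and 1.92 CPM early and 1.61, 2.53, 14.6, 32.04 and 17.2 CPM late, so that 3 late livers carried its rise. Its call was lost without HFCFD8W+T10D mouse 1, 2, 3, 4 or 5 or HFCFD12W+T10W mouse 3, 4 or 5 (adjusted p 0.0552 to 0.0803).

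Some cell cycle genes fell. Of 45 listed, 33 were tested, and 9 fell and 0 rose, beside 3.83% fallen of all genes. The median log2 change was -1.03, the lowest here of the lists with 5 or more genes tested. In the other fits that kept every mouse it was -1.23 to -0.65. The low-count filter can admit a gene through 1 group alone. Genes near the floor could thus enter through their early level, and the count and median may lean towards falls. *Rrm2*, a subunit of ribonucleotide reductase, was 20.6, 19.9, 20.8, 10.997 and 14.3 CPM early and 6.58, 4.84, 5.17, 4.14 and 7.02 CPM late (3.1-fold lower, adjusted p = 6.38e-04). The mitotic kinase gene *Cdk1* fell, at 4.21, 4.06, 7.59, 1.98 and 4.9 CPM early and 0.346, 0.77, 0.449, 1.12 and 1.98 CPM late (4.71-fold, adjusted p = 0.00772), with no overlap in either gene. *Kif20a*, a mitotic kinesin, fell 3.44-fold and the replication helicase subunit *Mcm6* 2.81-fold. The proliferation markers *Mki67* and *Top2a* did not pass (log2 changes -1.40 ± 0.45 and -1.39 ± 0.44, adjusted p = 0.074 and 0.069). HFCFD12W+T10W mouse 5 had *Mki67* at 7.02 CPM against 0.923 to 2.42 CPM in the other late livers. The count of 9 became 23 without HFCFD8W+T10D mouse 4, 18 without HFCFD12W+T10W mouse 5, 6 without HFCFD8W+T10D mouse 1 or 2, and 5 without mouse 3 of either group. It was 15 in DESeq2, and 20 and 19 of 45 in the joint fits of 30 and of 20 libraries.

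Sterol synthesis and uptake genes mostly rose where they changed. Of 29 cholesterol synthesis and uptake genes tested, 5 rose and 1 fell, beside 4.72% risen and 3.83% fallen of all genes. *Fdft1*, *Msmo1* and *Sc5d* of the synthesis pathway rose 1.72-fold, 1.53-fold and by 0.42 log2. *Msmo1* lost its call without HFCFD8W+T10D mouse 1 or 3 (adjusted p 0.054 to 0.0543). The gene that fell, *Rdh11* (-0.49 log2), passed in no fit without a mouse other than those without mouse 4 of either group. *Insig2*, whose product holds the sterol sensor SCAP in the endoplasmic reticulum, had the largest fall of the lipogenic list: 291, 245, 259, 355 and 651 CPM early and 65.2, 61.8, 110.2, 53.5 and 124 CPM late (4.34-fold lower, adjusted p = 0.00158). In HFCFD2W livers it was 61.2 to 77.8 CPM, and its fall was smaller in the Cre+ livers (-0.69 log2, adjusted p of the difference = 0.023).

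Genes that store or move cholesterol rose and fell. Of 34 tested, 6 rose and 4 fell, beside 4.72% risen and 3.83% fallen of all genes. *Soat2*, which esterifies cholesterol, was 8.53, 9.13, 6.57, 8.02 and 7.5 CPM early and 19.3, 18.8, 18.6, 20.7 and 18.8 CPM late, 2.42-fold higher with little spread (adjusted p = 2.86e-05). *Lipg*, endothelial lipase, rose, at 4.21, 8.49, 3.85, 3.37 and 6.82 CPM early and 21.3, 27.8, 26.2, 36.9 and 31.9 CPM late (5.41-fold, adjusted p = 8.97e-05), and by 2.38 log2 in the Cre+ livers. The VLDL receptor gene *Vldlr* rose, at 0.679 to 5.19 CPM early and 8.997 to 16.1 CPM late (4.31-fold). *Abcg8*, a subunit of the canalicular sterol transporter, rose 1.89-fold, and *Npc1*, of lysosomal cholesterol release, 1.42-fold. *Apoa4*, an apolipoprotein, fell, at 471, 285, 366, 372 and 395 CPM early and 162, 118, 80.5, 133 and 184 CPM late (2.78-fold, adjusted p = 0.00107). The fallen genes became 1 without mouse 1 or 2 of either group or HFCFD12W+T10W mouse 3, and 2 without HFCFD8W+T10D mouse 3.

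Of 32 de novo lipogenesis genes, 3 fell (*Insig2*, *Fasn* and *Pgd*) and 1 rose (*Dgat2*), beside 4.72% risen and 3.83% fallen of all genes. *Fasn*, fatty acid synthase, was 419.9, 246, 316, 229.6 and 191 CPM early and 181, 178, 159, 153 and 177 CPM late (1.65-fold lower, adjusted p = 0.0247). Its call was lost without HFCFD8W+T10D mouse 3 or HFCFD12W+T10W mouse 3 (adjusted p 0.0612 to 0.0654), which left 1 fallen gene in the list. It was also lost in the joint fits of 30 and of 20 libraries (adjusted p = 0.177 and 0.128), and HFCFD2W livers held 259.8 to 939.6 CPM of *Fasn*. *Dgat2*, the last enzyme of triglyceride synthesis, rose 1.27-fold and lost its call without HFCFD8W+T10D mouse 3 or 5 or HFCFD12W+T10W mouse 1, 3 or 5 (adjusted p 0.0501 to 0.0773).

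Some bile acid genes of both the synthesis and the transport arm changed. Of 35 tested, 5 rose and 3 fell, beside 4.72% risen and 3.83% fallen of all genes. *Cyp8b1*, the sterol 12-alpha-hydroxylase that sets the share of cholic acid, stood at 267, 206, 208, 269 and 356 CPM in the early and 133, 147, 113, 75.8 and 75.97 CPM in the late livers. It was 2.4-fold lower without overlap (adjusted p = 0.00314), and HFCFD2W livers held 185 to 329 CPM, near the early level. *Cyp7a1*, the rate-limiting enzyme, changed by 0.49 log2 and did not pass (adjusted p = 0.316). *Nr0b2*, the repressor SHP, rose, at 25.04, 6.47, 14.5, 6.44 and 4.9 CPM early and 24.7, 26.6, 40.1, 33.8 and 35.9 CPM late (2.83-fold, adjusted p = 0.0241). HFCFD8W+T10D mouse 1 overlapped the late group in *Nr0b2*, and the call was lost without HFCFD8W+T10D mouse 2 or HFCFD12W+T10W mouse 3 (adjusted p 0.0576 to 0.0627). *Nr1h4*, the bile acid receptor FXR, fell 1.26-fold and lost its call without HFCFD8W+T10D mouse 3, 4 or 5 or HFCFD12W+T10W mouse 2, 3 or 5 (adjusted p 0.0536 to 0.0834). *Cyp2c70*, which makes muricholic acids, fell 2.003-fold and lost its call without HFCFD8W+T10D mouse 2 or 3 or HFCFD12W+T10W mouse 1, 2, 3 or 5 (adjusted p 0.0601 to 0.0832). The export pump genes *Abcc2* and *Abcc4* rose 1.45- and 2.55-fold, and *Abcc4* lost its call without HFCFD8W+T10D mouse 3, 4 or 5 or HFCFD12W+T10W mouse 3 or 5 (adjusted p 0.0548 to 0.0757). The risen genes became 2 without HFCFD12W+T10W mouse 3 and 3 without HFCFD8W+T10D mouse 2, and the fallen genes 1 without mouse 3 of either group or HFCFD12W+T10W mouse 5.

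**Figure D4:**
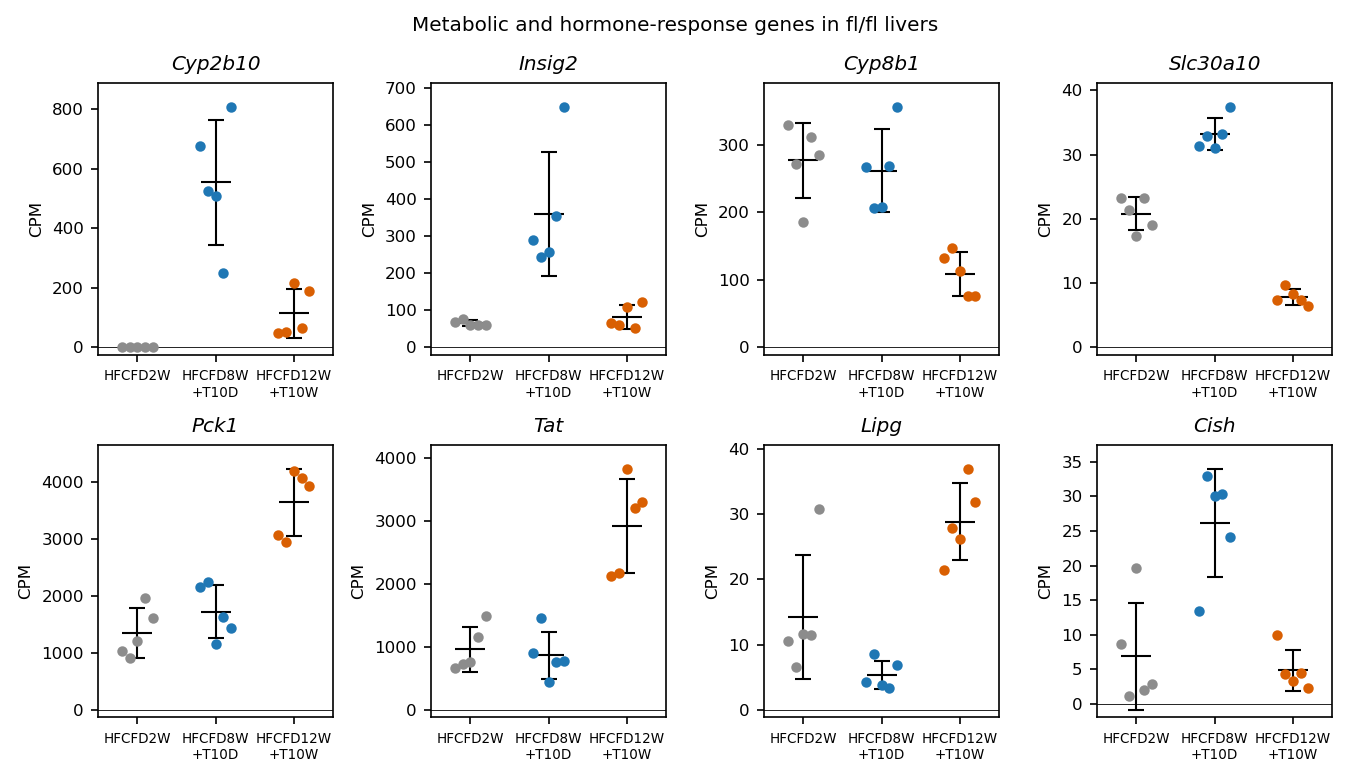
Level in CPM (linear axis) of 8 metabolic and hormone-response genes in the 5 mice of each fl/fl group; points are mice, bars the mean and 1 SD. *Slc30a10* falls to 6.53 to 9.79 CPM and *Pck1* and *Tat* rise in the late livers, while *Cyp2b10* is at or below 0.684 CPM in HFCFD2W livers.

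Some genes of fatty acid oxidation rose. Of 52 tested, 6 rose (11.5%) and 0 fell, beside 4.72% risen and 3.83% fallen of all genes. The list's median log2 change was 0.11, and 36 of the 52 changes were above 0. Leaving out each mouse gave 5 to 7 risen genes, and the other fits gave 3 to 9. *Acot4*, a peroxisomal thioesterase, rose, at 89.6, 92.3, 82.1, 90.2 and 104 CPM early and 183, 176, 221, 199 and 251 CPM late (2.25-fold, adjusted p = 7.89e-05), and in the Cre+ livers it changed by 0.07 log2 (adjusted p of the difference = 2.98e-04). *Acot3*, its neighbour on chromosome 12, rose 3.06-fold in the fl/fl and fell in the Cre+ livers (-0.68 log2, adjusted p of the difference = 2.34e-04). Single values of *Acot3* are uncertain, since its expected counts were not whole in any library. *Ppara*, the receptor that drives these genes, rose 1.58-fold and *Cpt1a*, the gate of mitochondrial import, 1.44-fold, both without overlap. None of 46 subunits of oxidative phosphorylation passed the edgeR test, nor DESeq2's or limma's, and their log2 changes ran from -0.28 to 0.13. Of the 46, 2 had an unadjusted p under 0.05, beside 2807 of 11710 genes tested.

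Of 42 genes of gluconeogenesis, glycolysis and glycogen, 8 rose and 2 fell, beside 4.72% risen and 3.83% fallen of all genes. The list's median log2 change was -0.04 and 18 of the 42 changes were above 0. *Pck1*, which commits carbon to gluconeogenesis, was 2153, 2251, 1156, 1639 and 1445 CPM in the early and 3081, 2953, 4193, 4076 and 3934 CPM in the late livers (2.11-fold higher, adjusted p = 0.00405). *G6pc*, glucose-6-phosphatase, rose, at 302, 191, 251, 263 and 149.7 CPM early and 394, 414, 523, 464 and 395 CPM late (1.9-fold, adjusted p = 0.00593). *Foxo1*, the insulin-restrained activator of both, rose, at 35.8 to 75.2 CPM early and 89.4 to 105.4 CPM late (1.66-fold). The groups did not overlap for these 3 genes. *Irs2*, an insulin receptor substrate, fell 1.9-fold, and *Ldha* fell by 0.44 on the log2 scale. *Irs2* lost its call in the joint fits of 30 and of 20 libraries (adjusted p = 0.0789 and 0.0622). *Slc2a1*, *Slc2a9*, *Gckr*, *Insr* and *Pfkfb3* were the other risen genes, by 0.38 to 1.26 log2. The fallen genes became 1 without mouse 1 of either group or HFCFD12W+T10W mouse 2 or 3.

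Of 56 genes of the urea cycle and amino acid catabolism, 8 rose and 4 fell, beside 4.72% risen and 3.83% fallen of all genes. *Tat*, tyrosine aminotransferase, a classic glucocorticoid-induced gene, was 899.8, 1462, 441, 763 and 777 CPM early and 2122, 2179.5, 3828, 3206 and 3303 CPM late (3.37-fold higher, adjusted p = 0.00244). It gained more CPM than any other called gene. The transporter genes *Slc7a2*, *Slc38a2* and *Slc38a3* rose 2.22-, 2.56- and 2.21-fold, *Slc7a2* from 366, 565, 232, 385 and 362 to 902, 851, 1044, 744 and 693 CPM. *Slc38a3*, a glutamine transporter, is not on that list and was named for its gain in CPM. *Gldc*, of glycine cleavage, fell, at 107, 74.8, 108, 135 and 112 CPM early and 32.5, 29.03, 40.5, 20.2 and 54.5 CPM late (3.04-fold, adjusted p = 0.00139). The 8 risen genes became 5 without mouse 3 of either group or HFCFD8W+T10D mouse 1.

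Growth hormone signals to hepatocytes through STAT5, and 2 feedback inhibitors that STAT5 induces fell. *Cish*, a feedback inhibitor induced by STAT5, was 13.4, 32.96, 30.01, 30.4 and 24.1 CPM in the early and 9.92, 4.29, 3.37, 4.48 and 2.28 CPM in the late livers (5.41-fold lower, adjusted p = 0.00118). *Socs2*, another such inhibitor, was 17.9, 32.8, 73.4, 17.3 and 61.02 CPM early and 19.1, 14.2, 7.75, 16.1 and 9.5 CPM late (3.04-fold lower). The groups overlapped in *Socs2*, and its call was lost without HFCFD8W+T10D mouse 3 or 5 or HFCFD12W+T10W mouse 2, 3 or 5 (adjusted p 0.0547 to 0.0727). *Bcl6*, a repressor that opposes STAT5 at sex-biased genes, rose, at 6.83, 3.93, 7.47, 3.57 and 4.8 CPM early and 5.88, 11.2, 28.97, 56.9 and 25.03 CPM late (4.82-fold, adjusted p = 0.0148), with HFCFD12W+T10W mouse 1 inside the early range. That call was lost in a robust edgeR fit and with limma on the authors' values (adjusted p = 0.0525 and 0.0505). *Igf1* changed by 0.16 and the receptor gene *Ghr* by 0.39 log2, and neither passed. The whole list of 44 growth hormone, IGF and hepatokine genes gave 5 fallen and 2 risen, beside 3.83% fallen and 4.72% risen of all genes. The risen share was near that of all genes. The fallen genes became 1 without HFCFD12W+T10W mouse 2 or 3, 2 without HFCFD8W+T10D mouse 3 or 5 or HFCFD12W+T10W mouse 1, and 3 without HFCFD8W+T10D mouse 1 or HFCFD12W+T10W mouse 4, and the risen genes became 4 without HFCFD12W+T10W mouse 4.

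Male-biased liver genes, which depend on the pulsed growth hormone of males, gave 4 fallen and 2 risen of 39 tested, beside 4.72% risen and 3.83% fallen of all genes, with a median log2 change of -0.47. *Elovl3*, a fatty acid elongase, was 31.6, 70.7, 24.3, 147 and 35.7 CPM early and 28.1, 11.2, 16.4, 13.7 and 2.77 CPM late (4.31-fold lower, adjusted p = 0.0344). Its call was lost without HFCFD8W+T10D mouse 2 or 4 or HFCFD12W+T10W mouse 2, 3 or 4 (adjusted p 0.0562 to 0.0799). *Ugt2b38* fell 5.2-fold without overlap, *Selenbp2* 8.996-fold and *Mup11* 2.94-fold, and the expected counts of all 3 were not whole in any library, so that single values are uncertain. *Selenbp2* lost its call without HFCFD8W+T10D mouse 3 or HFCFD12W+T10W mouse 2, 3 or 4 (adjusted p 0.0502 to 0.065). *Mup11* lost its call without HFCFD8W+T10D mouse 1, 2, 3 or 4 or HFCFD12W+T10W mouse 1, 2, 3 or 5 (adjusted p 0.0643 to 0.0997). Leaving out HFCFD8W+T10D mouse 5 raised the fallen genes to 9, leaving out HFCFD12W+T10W mouse 3 lowered them to 1, and leaving out HFCFD8W+T10D mouse 2 or 3 or HFCFD12W+T10W mouse 2 gave 2. Female-biased genes gave 4 risen and 3 fallen of 38, against the same shares, and the risen ones became 8 without HFCFD12W+T10W mouse 1 and 7 without HFCFD8W+T10D mouse 5 or HFCFD12W+T10W mouse 4. *Cyp17a1* and *Cyp3a44*, 2 cytochrome P450 genes, fell 3.55- and 5.97-fold with overlap, and *Cyp3a44* lost its call without HFCFD8W+T10D mouse 1, 3 or 5 or HFCFD12W+T10W mouse 1, 2 or 3 (adjusted p 0.0665 to 0.098). *Cyp2b13*, another, was 3.41, 3.55, 0.793, 1.68 and 8.94 CPM early and 2.999, 19.02, 45.6, 1.9 and 250.1 CPM late, so that HFCFD12W+T10W mouse 5 alone held most of its rise. Its call was lost without HFCFD8W+T10D mouse 1, 2, 3, 4 or 5 or HFCFD12W+T10W mouse 2, 3 or 5 (adjusted p 0.0536 to 0.117). Single values of *Cyp2b13* and *Cyp3a44* are uncertain. The expected counts of *Cyp2b13* were not whole in any library, and those of *Cyp3a44* were not whole in 8 of 10.

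Drug metabolism genes were led by *Cyp2b10*, the standard target of the receptor CAR. It stood at 676, 525, 507, 251 and 808 CPM in the early and 49.6, 51.5, 217, 66.8 and 188 CPM in the late livers (4.83-fold lower without overlap, adjusted p = 0.00859). In the HFCFD2W livers, whose labels name no tamoxifen, it was 0.428, 0.43, 0.563, 0.132 and 0.684 CPM. In the Cre+ livers it changed by -3.46 log2. The expected counts of *Cyp2b10* were not whole in 7 of 10 libraries. Of 62 xenobiotic genes 3 rose, near the 4.72% of all genes, and *Cyp2b10* was the only one that fell, beside 3.83% of all genes. *Ahr*, the aryl hydrocarbon receptor, rose, at 20.4 to 40.1 CPM early and 50.1 to 80.3 CPM late (1.97-fold, adjusted p = 0.0037). *Por*, the electron donor of cytochromes P450, rose 1.46-fold and lost its call without HFCFD8W+T10D mouse 1 or HFCFD12W+T10W mouse 3 (adjusted p 0.0538 to 0.0541). *Cyp2a5* rose 1.78-fold and lost its call without HFCFD8W+T10D mouse 3 or 5 or HFCFD12W+T10W mouse 1 or 3 (adjusted p 0.0568 to 0.0736). Its value is uncertain, since its expected counts were not whole in any library. The 3 risen genes became 5 without HFCFD8W+T10D mouse 2 or HFCFD12W+T10W mouse 5 and 1 without HFCFD12W+T10W mouse 3, and the fallen gene was joined by others without HFCFD8W+T10D mouse 4 (3 fallen) or HFCFD12W+T10W mouse 5 (2 fallen).

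Among single genes outside these groups, *Slc30a10*, a manganese exporter, had the smallest adjusted p of all genes tested. It was 31.4, 32.96, 31.03, 33.2 and 37.5 CPM in the early and 7.38, 9.79, 8.31, 7.39 and 6.53 CPM in the late livers (4.22-fold lower, log2 change -2.08 ± 0.11, adjusted p = 1.29e-06). Its HFCFD2W level lay between, at 17.3 to 23.3 CPM, and it fell by 3.11 on the log2 scale in the Cre+ livers. *Slc34a2*, a phosphate transporter, was 41.9, 30.4, 79.4, 23.1 and 51.1 CPM early and 2.88, 1.32, 2.36, 0.448 and 5.44 CPM late (17.7-fold lower, adjusted p = 2.36e-04). In the Cre+ livers *Slc34a2* changed by -0.09 log2, which differed from the fl/fl change by -4.05 (adjusted p = 0.00225). HFCFD2W livers held 0 to 0.287 CPM of *Slc34a2*. *Sorcs2*, a sorting receptor, rose, at 0.228, 0.38, 0.34, 0.0991 and 0.48 CPM early and 6.81, 6.16, 3.14, 10.6 and 2.97 CPM late (18.7-fold, adjusted p = 2.86e-04). *Tubb2a*, a beta-tubulin, fell, at 64.5 to 106 CPM early and 10.1 to 35.5 CPM late, and *Arrdc2*, an arrestin-domain gene, rose, at 6.91 to 14.1 CPM early and 42.6 to 66.3 CPM late (4.93-fold). Single values of *Tubb2a* are uncertain, since its expected counts were not whole in 8 of 10 libraries.

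*Pcsk4*, *Rgs7bp* and *Spry4*, a feedback inhibitor of receptor tyrosine kinases, rose 5.94-, 5.45- and 3.87-fold without overlap. *Inhba*, the activin A subunit, fell 4.04-fold and lost its call without HFCFD12W+T10W mouse 1, 2 or 3 (adjusted p 0.0508 to 0.065). *Saa3*, an acute phase protein, fell, at 40.1, 47.03, 52.5, 34.5 and 39.8 CPM early and 14.4, 11.4, 11.8, 19.3 and 28.2 CPM late (2.5-fold, adjusted p = 0.00349), and *Cebpb*, the paralog of *Cebpa*, rose 1.85-fold. Of 48 acute phase and metallothionein genes tested, 4 rose and 2 fell, beside 4.72% risen and 3.83% fallen of all genes, with a median log2 change of 0.10. Leaving out each mouse gave 1 to 5 risen and 1 to 5 fallen genes of that list. *Pigr*, the immunoglobulin transporter, rose 1.61-fold in the fl/fl and fell in the Cre+ livers (-0.74 log2, adjusted p of the difference = 0.0044). *Flt4*, VEGF receptor 3 of sinusoidal endothelium, rose 2.02-fold, and *Cd34*, of capillary endothelium, fell 3.17-fold and rose in the Cre+ livers (1.28 log2, adjusted p of the difference = 4.16e-04). These were the only called genes of 35 sinusoidal endothelial genes tested, 1 risen and 1 fallen, beside 4.72% risen and 3.83% fallen of all genes. The median log2 change of that list was -0.11. The abundant plasma protein gene *Serpina3k* fell 1.93-fold and lost its call without HFCFD8W+T10D mouse 1, 2 or 3 or HFCFD12W+T10W mouse 2 or 3 (adjusted p 0.0501 to 0.0775). The expected counts of *Serpina3k*, *Mug2*, *Ugt2b37*, *Abcb1a*, *Gm10184* and *Gm28438* were not whole in any library, so their single values are uncertain. *Mug2* and *Abcb1a* rose 2.23- and 3.61-fold, and *Ugt2b37*, *Gm10184* and *Gm28438* fell 9.48-, 15.2- and 1.59-fold. *Uox*, urate oxidase, rose 1.38-fold, the noncoding *Gm15411* rose 3.87-fold and the mitochondrially encoded *mt-Atp8* fell 1.47-fold. *Gm28438* lost its call without HFCFD8W+T10D mouse 1, 2 or 5 or HFCFD12W+T10W mouse 1, 2 or 3 (adjusted p 0.0535 to 0.0792). *Uox* lost its call without HFCFD8W+T10D mouse 3 or HFCFD12W+T10W mouse 1 (adjusted p 0.0502 to 0.0558), and *mt-Atp8* without HFCFD8W+T10D mouse 1, 2 or 5 or HFCFD12W+T10W mouse 1, 2, 3, 4 or 5 (adjusted p 0.0576 to 0.104).

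*Cebpa* itself (chr7:35119293-35121928, plus strand, mm10), intact in these mice, was 119, 139.6, 153, 145 and 147 CPM in the early and 122, 127, 80.6, 132 and 95.7 CPM in the late livers. The mean log2 level was lower by 0.35 in the late group (two-sided exact permutation test, p = 0.0397, n = 5 per group). HFCFD12W+T10W mice 3 and 5 were lowest, and 3 late livers lay within the early range. The p rose to between 0.0556 and 0.0952 without HFCFD8W+T10D mouse 2, 3, 4 or 5 or HFCFD12W+T10W mouse 3 or 5, and *Cebpa* did not pass edgeR's test across all genes (adjusted p = 0.137). HFCFD2W livers held 142 to 187 CPM. *Spp1*, which encodes osteopontin, was 34.4 to 52.01 CPM early and 36.2 to 50.1 CPM late, a difference of 0.16 log2 (exact permutation test, p = 0.317). In the Cre+ livers it rose by 1.71 log2, and the change differed between genotypes by -1.55 (adjusted p = 0.00408).

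**Figure D5:**
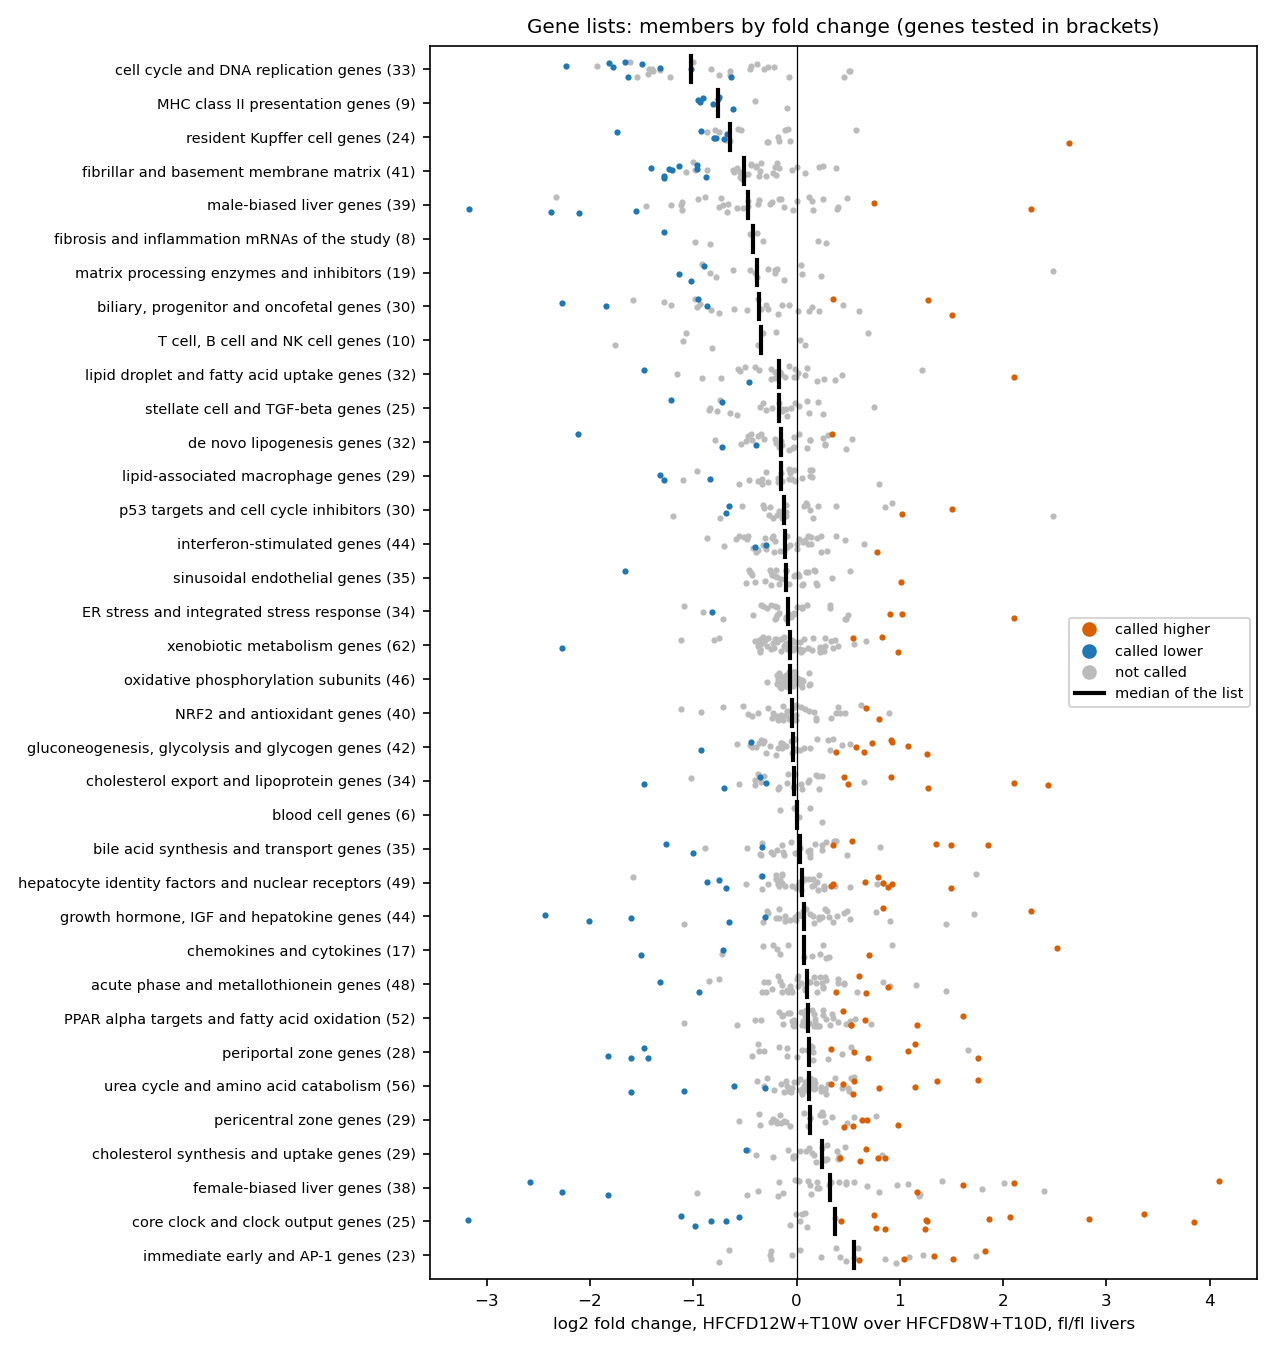
Log2 change from HFCFD8W+T10D to HFCFD12W+T10W (horizontal) of every tested member of the gene lists with 5 or more tested genes, ordered by median; orange points rose, blue points fell, grey points did not pass, and the black bar is the list's median. Cell cycle, MHC class II, Kupffer and matrix lists have the lowest medians, and the clock list is spread from -3.18 to 3.85.

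Across all genes, the same comparison in the Cre+ livers called 1502 of 12610 genes higher (11.9%) and 1417 lower (11.2%). Of the genes tested in both genotypes, 216 were called higher in both, which is 39.7% of the fl/fl list and 18.9% of the Cre+ list. The 190 genes called lower in both are 43.1% of the fl/fl list and 13.6% of the Cre+ list. Of the genes that rose in the fl/fl livers 9 fell in the Cre+ livers, and of those that fell 24 rose there. The change itself differed between genotypes for 922 of 12900 genes (7.15%), and 167 of the genes called in the fl/fl livers were among them. The fl/fl and Cre+ libraries are different mice, so no sample is shared, whereas the cohorts are.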

How the data were processed

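Stranded libraries of poly(A) RNA were made from whole liver, with 1 library for each mouse. The deposited gene tables hold expected counts from RSEM 1.2.22 (11.4% of the values above 0 in the 10 libraries are not whole), TPM, and an authors' table of signal values, CPM scaled by TMM, for 15010 filtered genes. Deposited RPKM values were not used. The submitters' processing notes also name Trimmomatic 0.36, STAR 2.5.1, Picard 1.84, DESeq2 and mm10. Identifiers of the 55450 genes are those of GENCODE M21, which gave coordinates.

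Expected counts were rounded and tested in R 4.3.3 with edgeR 4.0.16 (filterByExpr, TMM, quasi-likelihood F test, Benjamini-Hochberg adjustment over all genes tested). Log2 CPM for the exact permutation tests used a prior count of 2. The difference between genotypes is an interaction term in 1 fit of 20 libraries. Alternatives were DESeq2 1.42.0, limma 3.58.1 on the authors' values plus a pseudocount of 1, upper quartile scaling, no low-count filter, a robust fit, joint fits, a block on replicate number, an adjusted p under 0.01 and leaving out each mouse. Scripts were tested on simulated data. Mice with the same number did not deviate together, so the numbers were not used as pairs.

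The groups were chosen by label, but the gene lists, motifs and named genes were chosen with earlier results of these data known. Genes were named as the 12 largest changes each way without overlap among genes averaging 2 CPM or more, the 8 largest gains and losses in CPM, up to 4 per list by p, *Cebpa*, *Spp1*, the study's fibrosis mRNAs, and list members with their values. The results of some list members are not reported here. With 5 mice per group and the depths given above, low genes are measured with few counts, and CPM is not scaled by gene length.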

Additional observations from a re-analysis of the deposited data

Results flagged for a closer look

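In 10 of 262 groups of 5 mice, 1 mouse stood apart from the other 4 by more than Dixon's limit of 0.71 for the gap over the range. The ratio was taken on log2 CPM with a prior count of 2, whereas the levels printed here are CPM. Chance alone gives about 1 in 20 such groups. Among clock genes these were *Usp2* in HFCFD8W+T10D mouse 3 (20.5 CPM against 25.9 to 27.5 in the others, ratio 0.786) and *Wee1* in HFCFD8W+T10D mouse 5 (6.92 against 10.7 to 12.3 CPM, 0.758). HFCFD8W+T10D mouse 4 was low in *Mmp2* (3.17 against 4.90 to 5.80 CPM, 0.718), *Mki67* (3.07 against 7.48 to 9.42 CPM, 0.791) and *Cd34* (2.18 against 5.46 to 6.92 CPM, 0.791). HFCFD8W+T10D mouse 3 was low in *Maff* (2.72 against 4.82 to 5.80 CPM, 0.751) and *Gm15411* (0.226 against 0.910 to 1.19 CPM, 0.809), and HFCFD8W+T10D mouse 5 was low in *Ccl24* (2.88 against 4.56 to 5.46 CPM, 0.716). HFCFD12W+T10W mouse 3 was high in *H2-Eb1* (31.4 against 25.4 to 26.5 CPM, 0.798) and *Foxo1* (105.4 against 89.4 to 92.3 CPM, 0.807).

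The change from HFCFD8W+T10D to HFCFD12W+T10W differed between fl/fl and Cre+ livers, by the interaction term in edgeR, for 34 of 131 named genes, beside 7.15% of all genes. Many of the named genes were chosen for their fl/fl change, which is a part of this difference, so the 2 shares cannot be compared. Values are the fl/fl minus the Cre+ log2 change. Among matrix and stellate cell genes it was -2.20 for *Col1a1*, -2.19 for *Col3a1*, -1.95 for *Col1a2*, -2.17 for *Col5a2*, -2.45 for *Fbln1*, -1.48 for *Sparc*, -1.55 for *Postn*, -1.74 for *Mgp* and -1.21 for *Serpinh1*. It was -1.98 for *Loxl2*, -1.61 for *Tagln*, -1.75 for *Acta2*, -1.64 for *Timp2*, -1.65 for *Mmp2*, -1.21 for *Vim* and -1.55 for *Spp1*. Among immune and endothelial genes it was -1.40 for *Cd207*, 4.54 for *Marco*, -1.83 for *Trem2*, -1.24 for *H2-Aa*, -1.15 for *Cd74*, -1.19 for *H2-Ab1*, -1.19 for *H2-Eb1* and -2.94 for *Cd34*. For metabolic and other genes it was -1.42 for *Insig2*, 0.86 for *Soat2*, 1.12 for *Abcg8*, 1.103 for *Acot4*, 2.30 for *Acot3*, -4.05 for *Slc34a2*, 1.06 for *Spry4*, 1.44 for *Pigr*, -1.72 for *Cdk1* and 1.29 for *Nfil3*.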

How the results depend on the processing

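The counts of 553 risen and 448 fallen genes were 312 and 256 in a fit with a replicate block, and 195 and 127 at an adjusted p under 0.01. Leaving out each mouse gave 317 to 580 risen and 232 to 457 fallen genes, and 90 to 142 and 121 to 208 over 2-fold. The 155 genes lower by over 2-fold became 243 in the joint fit of 30 libraries and 96 with limma on the authors' values, and the cause was not tested. The numbers do not pair the mice: correlations of same-numbered deviations were -0.114, 0.010, -0.138, -0.117 and 0.198, and only the mice numbered 5 correlated best with their own number. Of 123 named genes that passed, 78 passed in all 18 other fits, 37 were lost without at least 1 mouse, 33 were lost with the block, 16 in the robust fit, 14 with limma, 14 and 8 in the joint fits of 20 and 30 libraries and 3 without the low-count filter, and none of 131 changed sign. With the block, 2 MHC class II and 1 Kupffer genes fell. Other counts of 3 or more list genes moved by over 1.5 times without the block: in DESeq2 to 5 fallen lipogenic, 5 fallen lipid-associated macrophage, 7 fallen urea cycle and 5 risen xenobiotic genes, in the robust fit to 3 risen bile acid, 3 fallen growth hormone and 1 fallen male-biased genes, with limma to 2 fallen growth hormone genes, and without the low-count filter to 2 fallen cholesterol export, 8 risen female-biased and 9 fallen male-biased genes. The joint fit of 30 libraries gave 7 fallen biliary, 10 risen female-biased, 3 fallen growth hormone and 8 risen immediate early genes, and that of 20 libraries 2 fallen cholesterol export, 8 risen female-biased and 1 fallen lipid-associated macrophage genes. The *Cebpa* difference was -0.31 with scaling by library total only (exact permutation p = 0.103), -0.35 with the block (exact permutation p = 0.125, smallest possible 0.0625) and -0.42 to -0.24 without each mouse. Low genes limit precision: *Trem2*, *Cdk1* and *Sorcs2* were at a few CPM or less in at least 1 group.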

Other observations

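Of 49 hepatocyte identity factors and nuclear receptors, 8 rose and 4 fell, beside 4.72% risen and 3.83% fallen of all genes, and the pioneer factor genes *Foxa1* and *Foxa2* were among the fallen (-0.75 and -0.87 log2, adjusted p = 0.039 and 0.023 in edgeR), while the mineralocorticoid receptor gene *Nr3c2* rose (0.93 log2). The risen became 5 without HFCFD8W+T10D mouse 2 or HFCFD12W+T10W mouse 3, and the fallen became 1 without mouse 3 of either group and 2 without HFCFD8W+T10D mouse 4 or HFCFD12W+T10W mouse 2. Of 28 periportal genes 6 rose and 4 fell, and of 29 pericentral genes 5 rose and 0 fell, against the same shares. The 5 risen pericentral genes became 2 without HFCFD8W+T10D mouse 1 and 3 without mouse 3 of either group. Of 30 biliary, progenitor and oncofetal genes 3 rose and 4 fell, led by *Slpi* (-2.27) and *Ly6d* (-1.85), whereas in the Cre+ livers, where 11.9% of all genes rose and 11.2% fell, 27 of 47 rose and 1 fell. That list held 7 fallen genes without HFCFD8W+T10D mouse 4, 2 without HFCFD8W+T10D mouse 1, 0 risen genes without HFCFD12W+T10W mouse 3, and 1 risen gene without mouse 1 of either group.

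Of 44 interferon-stimulated genes 1 rose and 2 fell, and of 34 genes of endoplasmic reticulum and integrated stress 3 rose and 1 fell, beside 4.72% risen and 3.83% fallen of all genes. Of 40 NRF2 and antioxidant genes 2 rose and 0 fell in the fl/fl livers, against 1 and 14 of 42 in the Cre+ livers, where 11.9% of all genes rose and 11.2% fell. The 2 fallen interferon-stimulated genes became 0 without HFCFD8W+T10D mouse 1, 2 or 3 or HFCFD12W+T10W mouse 3 or 5, 1 without HFCFD12W+T10W mouse 1 or 2, and 5 without HFCFD8W+T10D mouse 4. The 2 risen NRF2 genes became 0 without HFCFD12W+T10W mouse 1, 2 or 3, 1 without HFCFD8W+T10D mouse 1, 3 or 4, and 5 without HFCFD12W+T10W mouse 4. None of 46 oxidative phosphorylation subunits passed edgeR's test or DESeq2's in the fl/fl livers. In edgeR 2 of them had an unadjusted p under 0.05, beside 2807 of 11710 genes tested. In the Cre+ livers 38 of 46 fell. The change differed between genotypes for 7 of the 46, beside 7.15% of all genes. None of 10 T cell, B cell and NK cell genes passed edgeR's test with all 10 livers, nor DESeq2's. Of the 10 genes, 3 had an unadjusted p under 0.05, beside 2807 of 11710 genes tested. In the joint fit of 30 libraries 2 of 26 were called lower, and without HFCFD12W+T10W mouse 4 1 of 10 was. Neutrophil markers summed to 2.67 to 26.2 CPM early and 3.41 to 7.95 CPM late.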
